A study of Mus musculus with 2 samples.

Results

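A set of genes of p53 signalling and of the BCL2 family were followed through nuclei captured by their Atf3 expression after a mild traumatic brain injury (mTBI). The 9 genes, of 31053 in the deposited matrices, were Bbc3, Bcl2l11, Hrk, Bax, Bcl2, Bcl2l1, Trp53, Mdm2 and Cdkn1a. They were chosen by name, with earlier results of these data known. The nuclei came from the ipsilateral cortex of mice over 7 weeks old, heterozygous for Atf3-CreER and for the nuclear envelope reporter Sun1-sfGFP, at 7 days post injury (dpi). Tamoxifen at 4 and 5 dpi marked cells that were expressing Atf3 on those days, so the sort for GFP holds neurons and glia alike and only cells that lived to 7 dpi. Nuclei of 4 males made up the first library and nuclei of 4 females the second, so n is 2 pools. No sham nuclei were analysed here, so levels are compared between cell types and not with an uninjured state. Sex, pool and sequencing depth cannot be told apart here.

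p53 is a transcription factor that is held low by the ubiquitin ligase Mdm2 and that, once stabilised by damage, turns on genes for cell cycle arrest, such as Cdkn1a, and for apoptosis. Proteins of the BCL2 family decide whether the outer mitochondrial membrane is opened. BH3-only proteins (Puma from Bbc3, Bim from Bcl2l11, Harakiri from Hrk) bind and block pro-survival members (Bcl-2, and Bcl-xL from Bcl2l1) or act on Bax, which forms the pore. In neurons deprived of trophic support or with cut axons, the JNK pathway is known to raise transcription of several BH3-only genes.

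The short BH3 motif through which these proteins bind each other is shown because it is what the 6 BCL2 family genes of the set share and what Trp53, Mdm2 and Cdkn1a lack. In the longest complete coding sequence of each gene (GENCODE vM21, GRCm38), a leucine codon, any 3 codons, a glycine or alanine codon, an aspartate codon and an acidic codon were looked for. Each of the 6 family genes held exactly 1 match, within a single coding exon, and the other 3 genes held 0. The lines give 30 coding bases, 5′ to 3′, with the leucine codon and the glycine or alanine and aspartate codons in capitals.
Bbc3 (chr7:16313770-16313799, plus strand): cagCTGcggcggatgGCGGACgacctcaac
Bcl2l11 (chr2:128147147-128147176, plus strand): gagCTGcggcggatcGGAGACgagttcaac
Hrk (chr5:118169888-118169917, plus strand): cggCTGcaggcgctgGGCGACgagctgcac
Bax (chr7:45465997-45466026, minus strand): tgtCTCcggcgaattGGAGATgaactggac
Bcl2 (chr1:106712575-106712604, minus strand): accCTCcgccgggctGGGGATgacttctct
Bcl2l1 (chr2:152829697-152829726, minus strand): gcgCTGagagaggcaGGCGATgagtttgaa

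Before the results, 1 paragraph on the libraries is needed. The male library held 4003 labelled nuclei with a median of 1742 UMIs (unique molecular identifiers, 1 per captured transcript) and the female library 4168 with a median of 3710, and 1344 and 1155 of these had a neuronal label with at least 50 nuclei. A label field of the female library gives male as its sex. Its title, and Xist at 1638 CPM (UMIs scaled to a common total of 1e6) against 3.33 CPM in the male library, put it as female. The libraries shared 1 cell barcode. Labels were taken as deposited. All 9 microglial markers were highest in Micro-PVM, and the astrocyte and oligodendrocyte markers in Astro and Oligo. Layer markers went with their labels only in part. Cux2 was highest in L2/3 IT CTX-1 and Crym in L5 PT CTX, but Cux1 was highest in Micro-PVM, Rasgrf2 in Pvalb, Bcl11b in L6 CT CTX, Pou3f1 in L2/3 IT CTX-1, Rorb in Astro and Foxp2 in VLMC. Fezf2, Pvalb and Sst, which define L5 PT neurons and the Pvalb and Sst interneurons, were near 0 in every label, at most 9.25 CPM, and none of the mural markers was highest in SMC-Peri, so that label is used as a name only. Of L5 PT CTX nuclei 95.8% lay in clusters led by that label and of L2/3 IT CTX-1 nuclei 82.7%, but only 22.7% of L2/3 IT CTX-2, 21.3% of L6 IT CTX and 0% of L4/5 IT CTX. Microglial marker RNA was present in all neuronal sums, at 296 to 1773 CPM against 5665 and 5791 CPM in microglia.

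RNA outside called nuclei also bears on low genes. In barcodes that were not called and held at most 100 UMIs, Bbc3 stood at 130 CPM (male library) and 47.8 CPM (female library), above its level in all 9 neuronal labels of the same library. The same held for Bax (60.05 and 26.1 CPM), Cdkn1a (45.6 and 21.7 CPM) and Bcl2l1 (89.0 and 101 CPM). Mdm2 outside nuclei (495 and 309 CPM) was above all neuronal labels but 1 in each library, and Bcl2l11 (16.6 and 37.0 CPM) above all 9 in the female library. Hrk, at 41.4 and 45.7 CPM outside nuclei, was above that level in 9 of 9 neuronal labels of both libraries. How much of a nucleus's count for these genes came from such RNA was not tested.

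**Figure D1:**
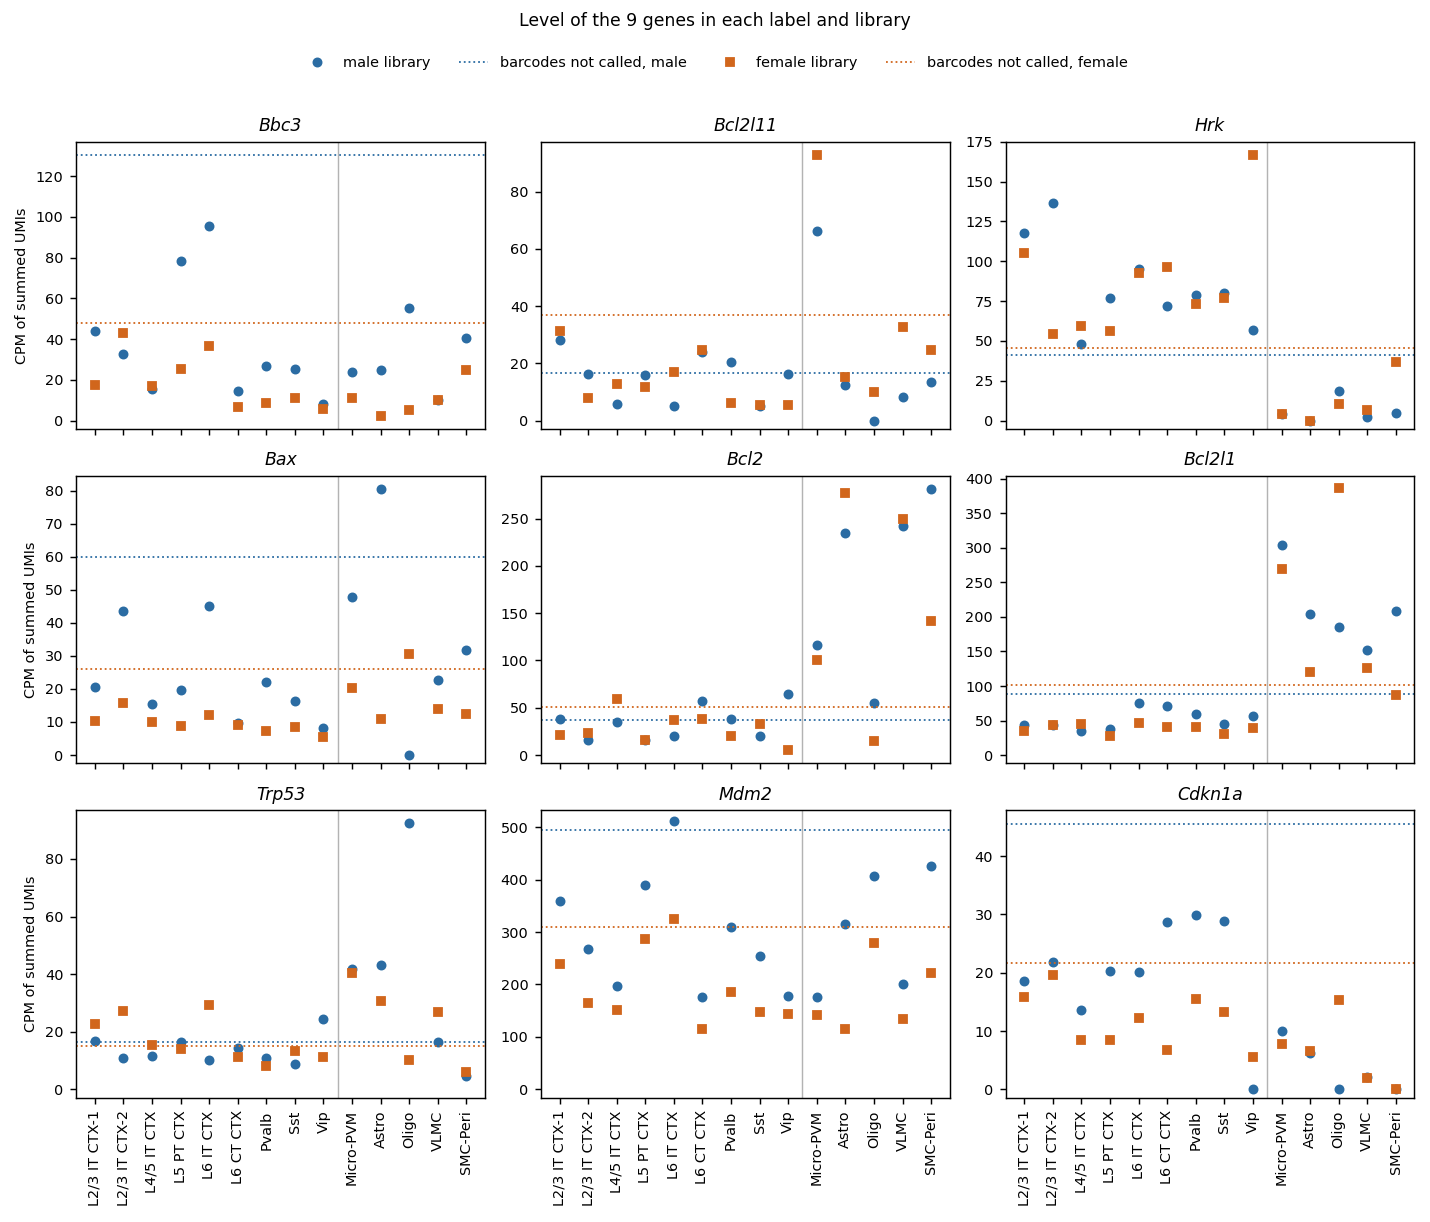
Each panel plots the level of 1 gene (CPM of summed UMIs) in the 9 neuronal and, right of the grey line, the 5 non-neuronal labels, with 1 point for each library, and dotted lines at the level in barcodes not called as nuclei. Hrk is high in neuronal labels and near 0 in microglia and astrocytes, Bcl2 and Bcl2l1 show the opposite, and the means of Bbc3 are highest in L6 IT CTX and L5 PT CTX, though in the female library L2/3 IT CTX-2 (43.0 CPM) is above both.

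Among the BH3-only genes, Bbc3 had larger sums in L5 PT CTX than in L2/3 IT CTX-1 in both libraries, and Bcl2l11 and Hrk had smaller ones. Values below are given for the male library first and the female library second. Bbc3 (chromosome 7, 16308393–16318205, plus strand), a classic target of p53, reached 78.4 and 25.5 CPM in L5 PT CTX (51.9 ± 37.4, SD, n = 2). In L2/3 IT CTX-1 it reached 43.9 and 17.7 CPM (30.8 ± 18.6). The ranges of the libraries overlap between the labels, because Bbc3 was higher in the male library in 7 of 9 neuronal labels, but within each library L5 PT CTX was the higher.

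L6 IT CTX had the highest mean Bbc3 (95.4 and 36.5 CPM), from 34 UMIs in a label spread over clusters led by others, followed by L5 PT CTX and then L2/3 IT CTX-2 (32.7 and 43.0 CPM). L4/5 IT CTX, L6 CT CTX, Pvalb, Sst and Vip lay between 5.56 and 26.8 CPM. Neighbours in this order overlapped between libraries, except that L4/5 IT CTX stood apart from L6 CT CTX. The male pool also had more Bbc3 outside nuclei, by 2.73 times, close to the 2.52 times in all neuronal nuclei, and the part of that RNA in the difference was not tested.

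Counted by nuclei, 26.1% of 352 male L5 PT CTX nuclei held a Bbc3 UMI (exact 95% binomial interval 21.6 to 31.1%) and 16.9% of 360 L2/3 IT CTX-1 nuclei (13.2 to 21.2%). In the female library the shares were 24.8% of 290 (19.96 to 30.2%) and 13.5% of 252 (9.53 to 18.3%). The intervals do not overlap in either library, though they cover counting error only and nuclei of 1 pool are not replicates. Median depths were 3790 and 3704 UMIs in the male library and 10700 and 7366 in the female one. With each nucleus thinned to 2300 UMIs, the shares became 15.8% and 10.5% in the male library and 6.59% and 4.16% in the female one, in the same order. Microglia, at median depths of 1299 and 3013 UMIs, held a Bbc3 UMI in 3.31% and 3.46% of nuclei, and 5.71% and 2.71% after thinning.

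Bcl2l11 (chromosome 2, 128126038–128162547, plus strand), which encodes Bim, gave 15.9 and 11.9 CPM in L5 PT CTX and 28.3 and 31.3 CPM in L2/3 IT CTX-1, and these ranges do not overlap. L2/3 IT CTX-1 was the highest neuronal label and stood apart from the next, L6 CT CTX (23.9 and 24.7 CPM), while Sst was the lowest (5.02 and 5.56 CPM). Of L5 PT CTX nuclei 6.53% and 10.3% held a Bcl2l11 UMI, against 9.44% and 18.3% of L2/3 IT CTX-1 nuclei in the male and female library.

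Hrk (chromosome 5, 118164648–118189478, plus strand), a BH3-only gene known mainly from neurons, gave 77.2 and 56.1 CPM in L5 PT CTX against 118 and 105 CPM in L2/3 IT CTX-1, again without overlap. Only L4/5 IT CTX (48.4 and 59.1 CPM) had a lower mean among the 9 neuronal labels compared. Vip had the highest mean, but its libraries were far apart (56.8 and 167 CPM from 37 UMIs in all). A Hrk UMI was present in 24.4% and 40.3% of L5 PT CTX nuclei, 32.5% and 41.3% of L2/3 IT CTX-1 nuclei, and 0.533% and 1.37% of microglia. Astrocytes had 0 Hrk UMIs in 53 and 62 nuclei, which allows up to 18.6 and 6.55 CPM (3 counts).

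**Figure D2:**
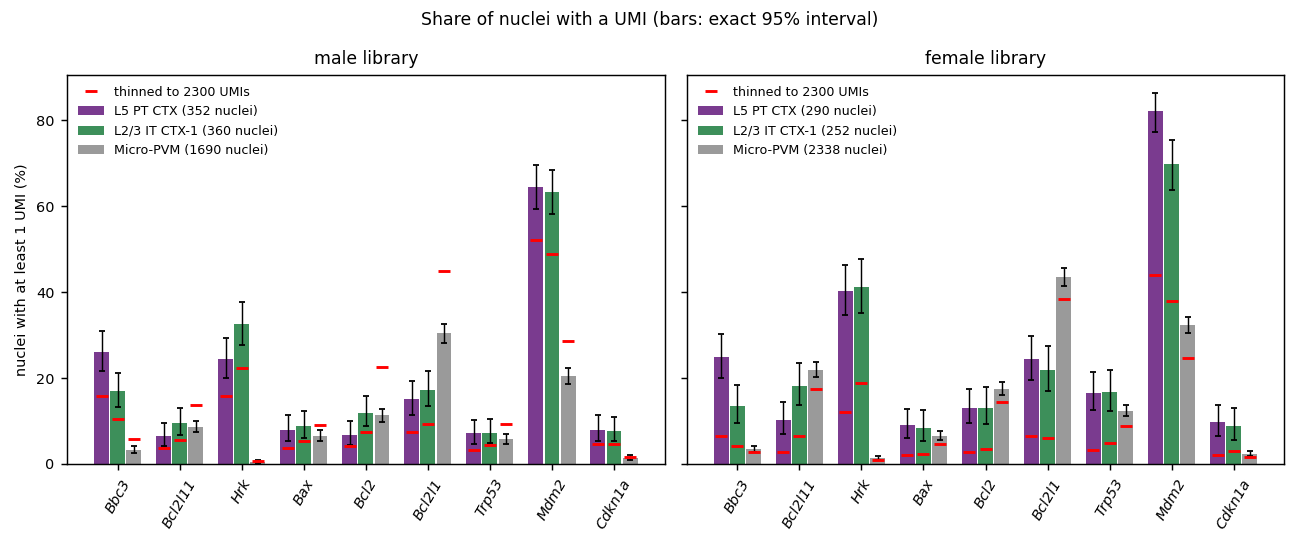
Bars give the share of nuclei with at least 1 UMI of each gene in L5 PT CTX, L2/3 IT CTX-1 and Micro-PVM for each library, with exact 95% binomial intervals, and red dashes the share after thinning to 2300 UMIs, for which only 194 of 1690 male microglia were deep enough. Bbc3 is found in more L5 PT CTX than L2/3 IT CTX-1 nuclei in both libraries, and Hrk is detected in few microglia.

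The pore former and its inhibitors come next. Bax (chromosome 7, 45461697–45466898, minus strand) gave 19.6 and 8.68 CPM in L5 PT CTX and 20.5 and 10.4 CPM in L2/3 IT CTX-1. These ranges overlap for most of their length, with L5 PT CTX slightly the lower in each library. It was higher in the male library in 9 of 9 neuronal labels, by 2.24 times over all of them and by 2.30 times outside nuclei. An annotated transcript, Gm45808, overlaps 915 bases of Bax on the same strand, so their reads may not be separable.

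Bcl2 (chromosome 1, 106538178–106714274, minus strand) had its lowest mean of all 14 labels in L5 PT CTX, at 15.9 and 15.6 CPM. The next label, L2/3 IT CTX-2 (16.4 and 23.4 CPM), did not overlap with it, but its values come from 9 UMIs in all and its male value is close. L2/3 IT CTX-1 gave 38.5 and 20.9 CPM, L4/5 IT CTX 34.8 and 59.1 CPM, Astro 235 and 277 CPM and VLMC 242 and 250 CPM, while Oligo gave 55.5 and 15.2 CPM from 6 UMIs. Bcl2l1 (chromosome 2, 152780668–152831728, minus strand) also had its lowest mean in L5 PT CTX, at 37.4 and 28.1 CPM, but overlapped with its neighbours Sst (45.2 and 30.6 CPM) and L2/3 IT CTX-1 (43.3 and 34.9 CPM).

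Of the p53 axis, Trp53 itself (chromosome 11, 69580359–69591873, plus strand) stood at 16.5 and 14.2 CPM in L5 PT CTX and 16.8 and 22.7 CPM in L2/3 IT CTX-1. Mdm2 (chromosome 10, 117688875–117710758, minus strand), both an inhibitor and a target of p53, gave 389 and 287 CPM in L5 PT CTX, behind L6 IT CTX (512 and 324 CPM) and ahead of L2/3 IT CTX-1 (359 and 240 CPM) among the neuronal labels. It was higher in the male library in 9 of 9 labels. Cdkn1a (chromosome 17, 29090976–29100727, plus strand), which encodes the cell cycle inhibitor p21, had its highest mean in Pvalb, at 30.0 and 15.5 CPM, and the next in Sst, at 28.9 and 13.2 CPM. In L5 PT CTX it gave 20.2 and 8.39 CPM and in L2/3 IT CTX-1 18.7 and 15.9 CPM, so the libraries do not give the same order. The ranges of Pvalb and Sst overlapped with each other and with the next label, L2/3 IT CTX-2 (21.8 and 19.5 CPM). Vip, also inhibitory, held 1 Cdkn1a UMI in all.

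Of the 9 genes, 4 have a p53 decamer, the unit from which p53 response elements are built, in the RefSeq window of 250 bases before to 50 after a transcript start (GRCm38.p6, both strands searched). Such a match is a description of these letters, and whether p53 binds there was not tested. Of all 32851 windows 8.36% hold it. That share counts windows, of which each of the 9 genes has 1 to 3, so it cannot be set against 4 of 9 genes. It is shown because Cdkn1a, Mdm2, Bax and Trp53 are the members that carry it, while the windows of Bbc3, Bcl2l11, Hrk, Bcl2 and Bcl2l1 hold none, which says nothing of sites elsewhere. Each line gives the gene's strand, 5′ to 3′, with the decamer in capitals and its distance in bases to the transcript start of its window. Cdkn1a has 2 such windows.
Cdkn1a, -73 (chr17:29090896-29090925): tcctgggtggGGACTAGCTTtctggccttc
Cdkn1a, -51 (chr17:29090918-29090947): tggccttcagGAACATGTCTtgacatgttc
Mdm2, -186 (chr10:117710925-117710954): agtcggatagGAACTTGCCTagcgaccatt
Bax, -201 (chr7:45467080-45467109): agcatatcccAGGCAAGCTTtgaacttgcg
Trp53, -75 (chr11:69580274-69580303): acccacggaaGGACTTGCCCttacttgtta

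The first comparison asked whether these genes differ between L5 PT CTX and L2/3 IT CTX-1. L5 PT CTX is the reference label for layer V neurons that project out of the cortex, and L2/3 IT CTX-1 a label for upper layer neurons. The study followed layer V neurons as vulnerable and layer II/III neurons as persisting, by tissue position and reporters and not by these labels. Hrk was lower in L5 PT CTX, and it was the only one of the 9 genes that passed the test. With summed UMIs of 18 library and label combinations in a single fit, the log2 fold change of Hrk was -0.74 with an SE of 0.24 (adjusted p = 0.0483 by edgeR's quasi-likelihood test), 1.67-fold lower, and it was lower in both libraries (-0.58 and -0.80). The call is at the edge of the threshold: the adjusted p was 0.0844 with DESeq2, 0.0587 by edgeR with no filter on low counts and 0.0818 by edgeR without the nuclei richest in microglial marker RNA, and over 7 alternative fits it ran from 0.00312 to 0.0844. Of all 8664 genes tested, 13.1% were called, 6.36% higher and 6.76% lower in L5 PT CTX, so a count of 1 among 9 is close to the share over all genes.

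Sums of 1 library share their animals, so the fit was repeated with the library as a block. There Bbc3 was higher in L5 PT CTX (log2 fold change 0.71, SE 0.24, adjusted p = 0.0281 by edgeR), and Bcl2l11 lower (-1.12, SE 0.32, adjusted p = 0.00941 by edgeR). Hrk stayed lower (adjusted p = 0.00312 by edgeR). Without the block, the values were 0.73 for Bbc3 (SE 0.44, adjusted p = 0.359 by edgeR) and -1.11 for Bcl2l11 (SE 0.38, adjusted p = 0.0628 by edgeR). Both genes kept their direction in each library alone, at 0.86 and 0.61 for Bbc3 and -0.78 and -1.27 for Bcl2l11 in the male and female library. With the block 3 of 9 genes and 1859 of all 8664 were called.

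The pro-survival genes did not pass the test in either fit. Bcl2 had -0.84 on the log2 scale (SE 0.40, adjusted p = 0.208 by edgeR), which came mainly from the male library (-1.22 against -0.31). Bcl2l1 had -0.25 (SE 0.25) and Bax -0.16 (SE 0.48). Trp53 (-0.37, SE 0.37), Mdm2 (0.20, SE 0.24) and Cdkn1a (-0.34, SE 0.43) also had adjusted p values above the threshold, and Cdkn1a took opposite signs in the libraries (0.14 and -0.79). The median of the 9 genes was -0.34, beside -0.01 over all genes tested.

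**Figure D3:**
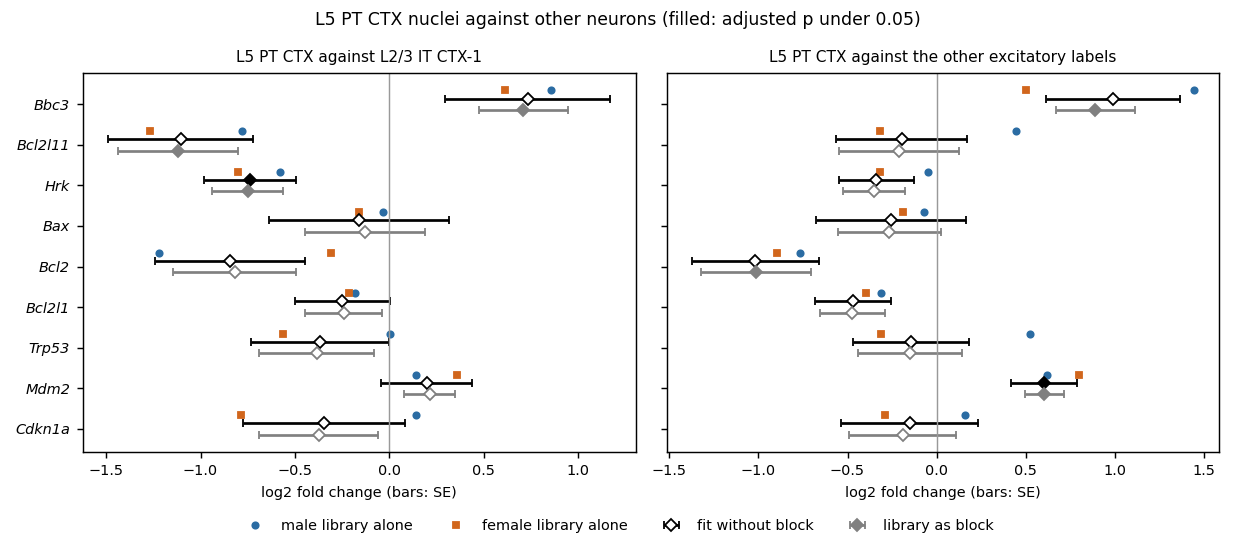
Log2 fold changes of the 9 genes, with SE bars, for L5 PT CTX against L2/3 IT CTX-1 (left) and against the mean of the other excitatory labels (right), for the fit without a block (black) and with the library as block (grey), and for each library alone (coloured points, no test). On the left Hrk is filled in both fits and Bbc3 and Bcl2l11 in the blocked fit only, and on the right Mdm2 is filled in both.

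Against the mean of the other 5 excitatory labels, Mdm2 was the gene that passed, with 0.60 on the log2 scale (SE 0.19, adjusted p = 0.0274 by edgeR), higher in both libraries (0.62 and 0.80). It did not pass with DESeq2 (adjusted p = 0.0842), and 16.6% of all genes were called here. Bbc3 had 0.99 (SE 0.38, adjusted p = 0.0795 by edgeR), and passed with the library as block (0.89, SE 0.22, adjusted p = 0.00295 by edgeR). Bcl2 had -1.02 (SE 0.36, adjusted p = 0.0540 by edgeR) and also passed with the block (-1.01, SE 0.31, adjusted p = 0.0143 by edgeR), under the study's nucleus limits (adjusted p = 0.0442 by edgeR) and with no filter on low counts (adjusted p = 0.0315 by edgeR). Neither Bbc3 nor Bcl2 passed with DESeq2, in nuclei of clusters led by their label or without the nuclei richest in microglial marker RNA. Bbc3 also did not pass under the study's nucleus limits. Hrk, lower against L2/3 IT CTX-1, was at -0.34 (SE 0.21, adjusted p = 0.329 by edgeR) against this wider set, and Bcl2l11 at -0.20 (SE 0.37). Both comparisons use the same L5 PT CTX sums and L2/3 IT CTX-1 is among the 5 labels, so they are not independent.

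Between inhibitory (Pvalb, Sst, Vip) and excitatory labels, 0 of 9 genes passed, while 24.6% of all genes did. At an unadjusted p under 0.05 there were 2 genes by edgeR and 1 by DESeq2, which also called 0. Bbc3 had -1.18 on the log2 scale (SE 0.49, adjusted p = 0.0895 by edgeR), and passed with the library as block (-1.14, SE 0.34, adjusted p = 0.0113 by edgeR). In pooled counts it was at 24.5 and 9.56 CPM in inhibitory and 53.8 and 22.4 CPM in excitatory nuclei. Bcl2l11 followed at -0.82 (SE 0.38, adjusted p = 0.131 by edgeR), and its single-library values were far apart (-0.06 and -1.29). Hrk, Bcl2 and Bcl2l1 had changes of 0.20, 0.01 and 0.08, with SE of 0.17, 0.29 and 0.18. Cdkn1a, whose highest means were in Pvalb and Sst, had -0.34 (SE 0.53), with -1.30 and 0.02 in the libraries alone.

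Lists of pathway genes were read in the L5 PT CTX against L2/3 IT CTX-1 comparison beside the 13.1% of all genes called there. Of 21 genes for p53 and its regulators 16 were tested and 0 passed by edgeR (0 by DESeq2, 1 lower with the block), with a median log2 fold change of -0.07. Of 30 p53 target genes 16 were tested, 0 were higher and 2 lower, with a median of -0.14. Those 2 were Plk2, a kinase of the stress and synaptic activity response, and Sesn1, a sestrin that restrains mTOR signalling. Plk2 gave 21.4 and 20.2 CPM in L5 PT CTX and 57.2 and 51.2 CPM in L2/3 IT CTX-1 (-1.34 on the log2 scale, SE 0.25, adjusted p = 0.000657 by edgeR). Sesn1 gave 103 and 88.5 CPM against 177 and 139 CPM (-0.70, SE 0.18, adjusted p = 0.0105 by edgeR, and 0.0631 with no filter on low counts).

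The list of factors known to act on Bbc3, Bcl2l11 or Hrk had 4 calls among 10 tested of 13, beside 13.1% of all genes. This list was written with earlier results of these data known, so its share of calls is a description only. Ddit3, which encodes the ER stress factor CHOP, was higher by 1.39 on the log2 scale (SE 0.32, adjusted p = 0.00425 by edgeR). The paper had already reported Ddit3 from these nuclei as highest in layer V and low in layer II/III, also by in situ hybridization. Foxo1 and Foxo3, forkhead factors that drive Bcl2l11 and Bbc3 when growth factor signalling falls, were lower. Foxo3 gave 41.0 and 33.3 CPM in L5 PT CTX and 76.4 and 75.7 CPM in L2/3 IT CTX-1 (-1.03, SE 0.23, adjusted p = 0.00271 by edgeR), and Foxo1 9.19 and 12.1 CPM against 22.3 and 31.7 CPM (-1.27, SE 0.35, adjusted p = 0.0149 by edgeR). Mapk10, the neuronal JNK kinase JNK3, gave 255 and 223 CPM against 450 and 429 CPM (-0.86, SE 0.18, adjusted p = 0.00187 by edgeR). In all 4 genes the libraries of the labels do not overlap. The same 4 genes passed against the other excitatory labels with the same signs, in a comparison that shares the L5 PT CTX sums. The Foxo1 call was lost there with no filter (adjusted p = 0.102 by edgeR), without the nuclei richest in microglial marker RNA (0.191) and in nuclei of clusters led by their label (0.164), and the last also ended it against L2/3 IT CTX-1 (0.0668).

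Few genes of the remaining lists passed the filter on low counts in neurons. Of 8 pro-survival BCL2 genes 3 were tested (Bcl2, Bcl2l1 and Mcl1), of 3 multidomain effectors 1 (Bax), of 8 BH3-only genes 3 (Bbc3, Bcl2l11 and Hrk) and of 7 CDK inhibitors 1 (Cdkn1a), and Hrk was the single call.

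Between inhibitory and excitatory labels, where 24.6% of all genes were called, 2 of 16 p53 targets were higher and 3 lower. Zmat3 (log2 fold change 1.02, adjusted p = 9e-05 by edgeR) and Sesn1 (0.38, adjusted p = 0.0175 by edgeR) were higher, and Btg2, Dram1 and Plk2 lower. Of 10 acting factors 2 were higher and 3 lower. The JNK kinase genes Mapk9 (0.58, adjusted p = 0.00699 by edgeR) and Mapk10 (0.34, adjusted p = 0.0119 by edgeR) were higher in inhibitory labels. Jun (-0.98, adjusted p = 0.00019 by edgeR), Ddit3 (-0.99, adjusted p = 0.00631 by edgeR) and Atf4 (-2.59, SE 0.82, adjusted p = 0.0243 by edgeR) were lower. Atf4 had only 92 and 127 UMIs over all neuronal labels, and its single-library values were smaller in size, at -1.29 and -1.95. Without the nuclei richest in microglial marker RNA, 2 of the 10 acting factors were lower in place of 3.

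Single nuclei carried few of the 9 genes at once. In L5 PT CTX 22.2% of male and 42.8% of female nuclei held UMIs of 3 or more of them, in L2/3 IT CTX-1 24.7% and 34.9%, and in microglia 6.21% and 16.7%, each time more in the deeper female library. Of 352 male L5 PT CTX nuclei, 92 held Bbc3, 86 Hrk and 20 both, and of 290 female ones 72, 117 and 36.

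Microglia, the most frequent captured cells (1690 and 2338 nuclei), set a different balance. Against the mean of the 9 neuronal labels, 5 of the 9 genes were higher and 2 lower, where 60.3% of 10336 genes were called, 33.9% higher and 26.4% lower. The share of calls is therefore no feature of these genes. The median of the 9 was 1.25 beside 0.19 for all genes. With DESeq2 the median of all genes was 0.05 in place of 0.19, and no direction among the 9 changed.

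Hrk was 19.0-fold lower in microglia (log2 fold change -4.25, SE 0.37, adjusted p = 9.2e-11 by edgeR), at 4.01 and 4.35 CPM, below its level outside nuclei. Bcl2l1 was 6.56-fold higher (2.71, SE 0.18, adjusted p = 2.75e-13 by edgeR), with sums of 304 and 270 CPM beside 45.3 and 34.7 CPM over all neurons. Bcl2l11 was 6.29-fold higher (2.65, SE 0.28, adjusted p = 3.06e-09 by edgeR), at 66.2 and 92.8 CPM. In these 3 genes no neuronal library overlapped with a microglial one.

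Bcl2 (1.89, SE 0.23), Trp53 (1.42, SE 0.27) and Bax (1.25, SE 0.38) were higher in microglia as well, although Bax lost its call with DESeq2 (adjusted p = 0.0580). Mdm2 was lower (-0.52, SE 0.22, adjusted p = 0.0451 by edgeR), a call lost with no filter on low counts (adjusted p = 0.115 by edgeR) and without the nuclei richest in RNA of the other class (adjusted p = 0.100 by edgeR). Bbc3 (-0.37, SE 0.42) and Cdkn1a (-0.64, SE 0.39) did not pass. Microglial sums carried neuronal marker RNA at 545 and 425 CPM against 1856 to 4754 CPM in neuronal sums, and its part in these values was not tested.

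The lists are read beside the 33.9% of all genes that were higher in microglia and the 26.4% that were lower, and the BCL2 lists include genes already described. Of 8 BH3-only genes 6 were tested, 4 higher and 1 lower (Hrk). Bmf was near 0 in neurons (0.671 and 0.634 CPM from 4 and 7 UMIs) and at 36.9 and 34.7 CPM in microglia, and Bid gave 29.3 and 27.2 CPM against 6.21 and 7.70 CPM. All 3 pro-survival genes tested were higher, with Mcl1 at 73.8 and 66.8 CPM against 20.6 and 16.3 CPM. Of 12 caspases and regulators tested 4 were higher and 0 lower, a share of higher genes close to that over all genes. Among them were Casp8, which starts apoptosis from death receptors (239 and 193 CPM against 2.69 and 2.72 CPM), and Birc3, an inhibitor of apoptosis (79.8 and 73.5 CPM against 2.35 and 2.99 CPM).

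Of 19 p53 regulators tested 9 were higher and 2 lower in microglia, close to the 60.3% called over all genes, with the DNA damage kinase Chek2 at 40.5 and 45.4 CPM against 5.37 and 3.44 CPM. Of 17 p53 targets 2 were higher and 4 lower, of 2 CDK inhibitors 1 was higher (Cdkn1b) and 0 lower, and of 11 acting factors 4 were higher and 4 lower, Jun (-2.26) and Mapk10 (-2.54) among the lower.

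**Figure D4:**
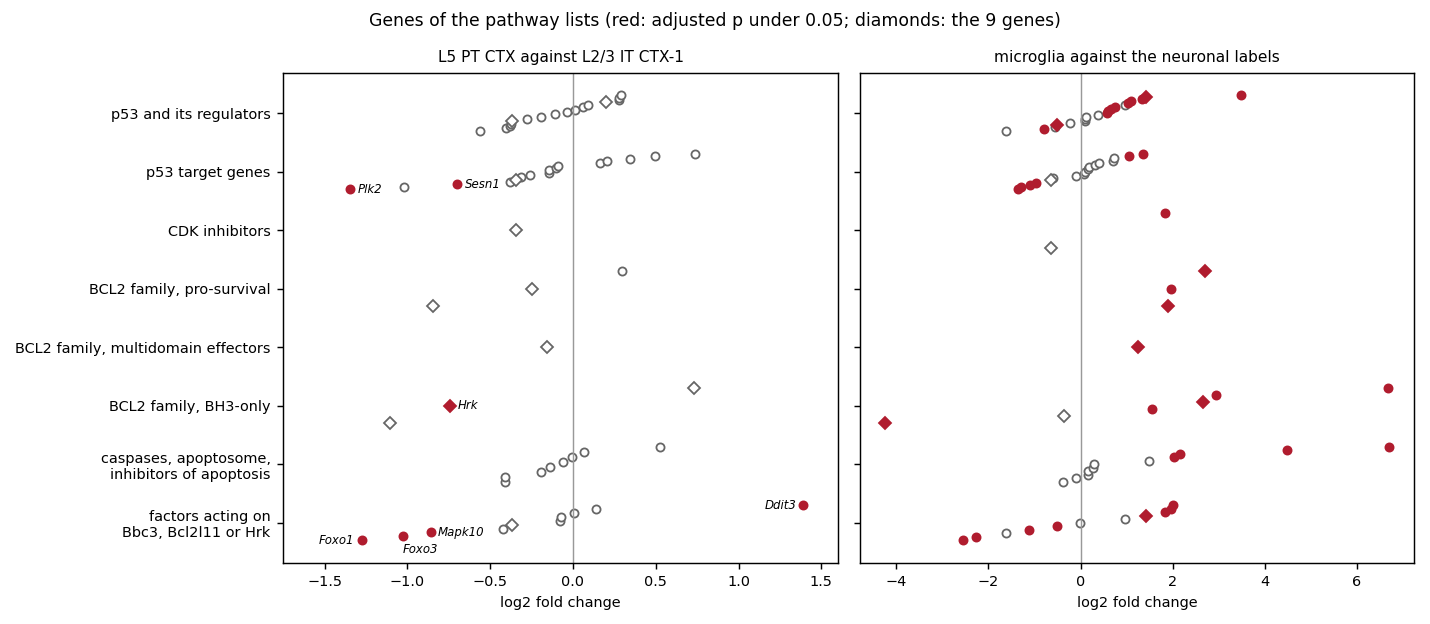
Each point is the log2 fold change of a tested gene of 8 pathway lists, in L5 PT CTX against L2/3 IT CTX-1 (left) and in microglia against the mean of the neuronal labels (right), red where the adjusted p was under 0.05 and as a diamond for the 9 genes, with a list gene that is not reported here left out. On the left the acting factors hold 4 of the called genes, and on the right most tested BCL2 family genes are to the right of 0, with Hrk far to the left.

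By the likeness of levels over the 9 neuronal labels (Pearson r of log2(CPM + 1), mean of the libraries), the genes closest to Bbc3 were Cog1, Prdm9, Ssbp1, Ovgp1 and Sprr1a, with r from 0.96 to 0.97. Those closest to Cdkn1a were Park7, Maea, Eri1, Mospd2 and Inppl1 (0.96 to 0.99) and those closest to Hrk Nacc1, Rbks, Tsr3, Irgq and Hnrnpa3 (0.88 to 0.94). With 9 points that share libraries and depth, and the highest of all tested genes picked, these values describe the ranking only.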

How the data were processed

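Nuclei were sorted for GFP, and libraries were made with 10X Genomics 3′ v3 chemistry. CellRanger, run by the authors on a pre-mRNA reference (mm10, GRCm38) so that intronic reads enter, gave the deposited raw UMI counts, for called and for all barcodes. The sources differ on the CellRanger version (3.1.0 in the submitters' processing notes). The deposited metadata table, made by the authors in Seurat, gave cell type labels, clusters, gene counts and percent mitochondrial UMIs, and was used as deposited, with no doublet caller of this re-analysis. The deposited depth-corrected matrix was not used. Plasmid reporter rows (under 0.001% of UMIs) were left out.

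UMIs were summed per library for 9 neuronal and 5 non-neuronal labels with at least 50 nuclei. These counts were tested with edgeR 4.0.16 (R 4.3.3, TMM, filterByExpr, quasi-likelihood test, Benjamini-Hochberg over all genes, threshold 0.05), in a fit of 18 neuronal sums or of all 28 sums. The common dispersion was 0.0293. P-values without the block measure the spread between 2 pools, estimated over the labels together, with sums of 1 pool taken as independent. With the block, the difference between pools that the labels share is removed, and p-values measure the spread that remains. Single-library values are log2 CPM ratios, 0.5 CPM added to each side. Shares have exact Clopper-Pearson 95% intervals. Thinned shares are expected values at 2300 UMIs and leave out shallower nuclei. The fits were also run on simulated sums with planted changes, drawn from a common profile with a fixed dispersion. No library effect was simulated, so that run says nothing of the choice between the fits with and without the block.

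The library pairs the sums because they come from the same pool. As a check, library differences correlated between labels with r from 0.0269 to 0.470 over 36 pairs (median 0.162). Alternatives were DESeq2 1.42.0, no filter, the block, the study's stated nucleus limits (at most 6000 genes and 5% mitochondrial RNA), nuclei in clusters led by their label, both L2/3 IT labels summed and each library alone.

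Genes named are the 9 members and, from 8 lists, up to 5 called genes per list, by absolute change and with the same sign in both libraries. Members and lists were chosen with earlier results of these data known. The list gene Rfwd2 had no row under that symbol. Positions and coding bases are from GENCODE vM21, promoter windows from RefSeq. A list gene is not reported here, nor are its list's counts between neuronal labels.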

Additional observations from a re-analysis of the deposited data

How the results depend on the processing

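Over the alternatives, 230 of 279 log2 fold changes of the 9 genes were counted as unchanged. In fits with a test this means the same direction and the same side of the threshold. For each library alone it means the same sign and a distance to the main value below its SE. The number of genes called rose from 1137 to 1859 with the library as block for L5 PT CTX against L2/3 IT CTX-1. For L5 PT CTX against the other excitatory labels, it fell from 1442 to 915 with only nuclei in a cluster led by their label. That set has no L4/5 IT CTX nuclei, and L2/3 IT CTX-2, with 4 male nuclei, did not enter its fit. The other excitatory labels there were L2/3 IT CTX-1, L6 CT CTX and L6 IT CTX (20 nuclei in each library). The block (library pairing) changed no other call than those given for Bbc3, Bcl2l11 and Bcl2. Genes that took the other sign were all uncalled. Bcl2 between inhibitory and excitatory labels went to -0.0064 with the block and -0.071 under the study's nucleus limits. Against the other excitatory labels, Bcl2l11 went to 0.086 and Trp53 to 0.011 without the 25% of nuclei richest in microglial marker RNA (in microglia, neuronal marker RNA), and Bax to 0.040, Trp53 to 0.065 and Cdkn1a to 0.65 in own-cluster nuclei. The cause was not tested. That 25% was chosen after seeing the data, since leaving out every nucleus with a microglial UMI left too few nuclei to fit, and without it the Hrk call was lost (adjusted p = 0.0818 by edgeR). In own-cluster nuclei Mdm2 lost its call against the other excitatory labels (adjusted p = 0.105 by edgeR) and Bcl2l11 passed against L2/3 IT CTX-1 (-1.34, adjusted p = 0.0141 by edgeR). With no filter on low counts Bbc3 passed against the other excitatory labels (1.08, adjusted p = 0.00116 by edgeR) and between inhibitory and excitatory labels (-1.16, adjusted p = 0.0126 by edgeR). Leaving out the male or the female library leaves no test. Shares of nuclei with a UMI all moved on thinning, which is its construction. Depth limits the low genes, since Bbc3 had 1 to 128 UMIs in a neuronal sum.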

Other observations

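Nuclei labelled Unknown, neurons that the study did not place in the cortex, entered no comparison. In 225 male and 170 female Unknown nuclei, Hrk stood at 19.1 and 10.7 CPM and Bbc3 at 14.9 and 9.46 CPM, and Cdkn1a had 2 and 1 UMIs. Bcl2l1 stood at 61.7 and 71.9 CPM. Hrk was thus lower there than in each of the 9 neuronal labels of the same library, whose lowest value was 48.4 CPM, and the difference was not tested.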
